A study of Mus musculus with 12 samples.

Results

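The homeostatic astrocyte genes followed here are *Aqp4*, *Slc1a2*, *Slc1a3*, *Aldh1l1*, *Aldh1a1*, *Glul*, *Gja1*, *Kcnj10* and *Gjb6*, a list of 9 gene symbols of resting astrocytes that was matched by name to the 52459 genes of the count tables. All 9 were found, and all 9 passed the filter on low counts in every comparison. The study sequenced poly(A) RNA of the cerebellum (Cb) and of the forebrain/midbrain (F/M) of *Tpp1*-/- mice (T), a gene-targeted model of late infantile neuronal ceroid lipofuscinosis that lacks the lysosomal peptidase TPP1, and of wild-type siblings as controls (N). All mice were males of 4 months of age from heterozygous crosses, and each of the 4 groups (F/M-N, F/M-T, Cb-N and Cb-T) held 3 libraries. *Tpp1* is disrupted in every cell of these animals, so no cell type was targeted. By the study's methods, both areas were taken from 3 mice of each genotype. Which Cb and F/M libraries belong to one mouse is not given in the sources used here, so the tests across areas treat all libraries as independent.

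Astrocytes remove transmitter glutamate and potassium from the space around synapses, pass ions and metabolites to each other through gap junctions, and move water across the endfeet that wrap blood vessels. The genes of this list, except the aldehyde dehydrogenase genes *Aldh1l1* and *Aldh1a1*, code for proteins of those functions. The list is made of genes that are widely used as astrocyte markers. In the cerebellum, Bergmann glia, the radial astrocytes that ensheath Purkinje cell dendrites, rely mainly on the glutamate transporter GLAST (*Slc1a3*), whereas GLT-1 (*Slc1a2*) is the main one in the forebrain.

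Total counts ranged from 21428379 to 24458189 per library, so that 3 counts, taken as the limit of detection, stood for 0.123 to 0.140 CPM (counts scaled to the library size), and this limit covers counting error only. The 9 genes had between 1356 (*Gjb6*) and 92171 (*Slc1a2*) counts in a library, far above that limit. CPM values are given on one scale, normalized over all 12 libraries by the TMM method (a trimmed mean of the ratios between libraries), whereas each fold change comes from a fit of edgeR's quasi-likelihood test on the libraries compared, with their own TMM scaling. The median log2 fold change of all genes in F/M differed by -0.033 between the fit of all 12 libraries and the fit of the 6 F/M libraries, so ratios of the printed F/M levels are slightly smaller than the fitted changes. A gene passed the test at an FDR (the Benjamini-Hochberg adjusted p over all genes tested) below 0.1, and it was a differentially expressed gene (DEG) if its fold change was also at least 1.5, the limits that the study used. *Tpp1* itself measured 90.2 ± 3.54 CPM (SD, n = 3) in F/M-N, 23.0 ± 1.10 in F/M-T, 113 ± 1.17 in Cb-N and 29.7 ± 1.57 in Cb-T, lower in every T library than in every N library of the area.

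In Cb, 8 of the 9 genes rose in *Tpp1*-/- mice and *Slc1a3* fell. Of all 16382 genes tested there, 29.8% rose and 27.9% fell at FDR below 0.1 (57.6% in all), and the median log2 fold change was 0.39 over the list and 0.012 over all genes. *Aqp4* and *Aldh1a1* were DEG, against a background of 8.54% of genes that were DEG in this direction and 2.66% in the other. In F/M, the same test found 8 of the 9 genes higher, none lower and none a DEG, and *Gjb6* did not pass. The background in F/M was 12.8% of 16665 genes higher at FDR below 0.1, 14.4% lower (27.2% in all), 2.63% DEG upward and 0.858% DEG downward, and the median log2 fold change was 0.18 over the list and 0.0078 over all genes. RNA of whole tissue was measured, so a larger number of astrocytes and more RNA of a gene in each astrocyte cannot be told apart. Genotype and the tissue taken cannot be told apart in either area, given the hindbrain and olfactory bulb genes described below. The plot of fold changes shows both areas and the difference between the control areas.

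**Figure D1:**
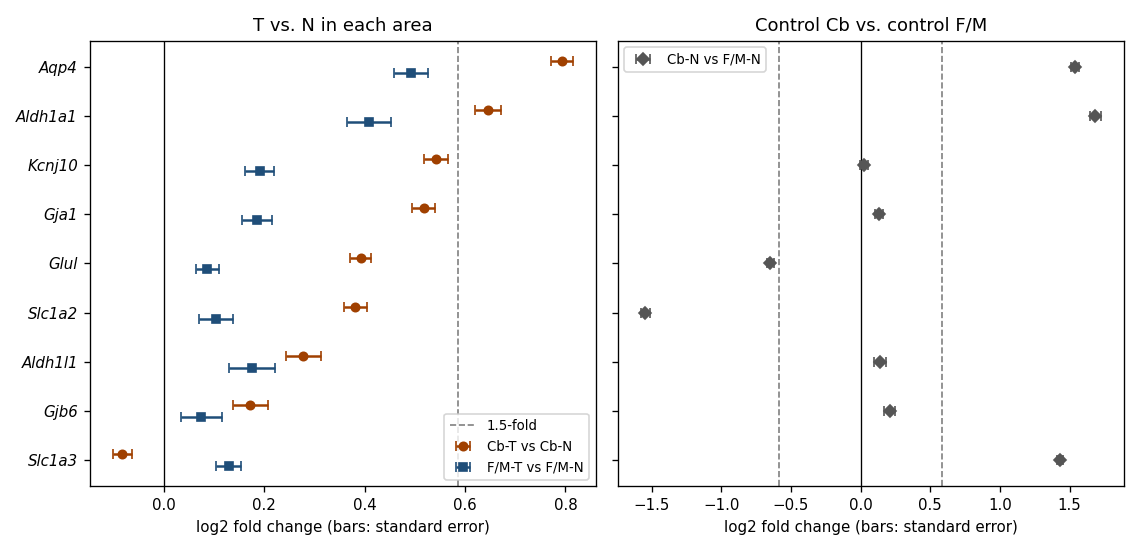
Log2 fold change of each gene with its standard error, for T against N in Cb (circles) and in F/M (squares) on the left and for Cb-N against F/M-N (diamonds) on the right, with dashed lines at 1.5-fold. *Aqp4* (0.79) and *Aldh1a1* (0.65) lie beyond the line in Cb, *Slc1a3* (-0.083 in Cb and 0.13 in F/M) changes sign between the areas, and the control areas differ most in *Aldh1a1* (1.68), *Slc1a2* (-1.55) and *Aqp4* (1.54).

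Glutamate uptake is carried by both transporters, and *Glul* codes for glutamine synthetase, which turns the glutamate taken up into glutamine. *Slc1a2* measured 1183, 1203 and 1119 CPM in the Cb-N libraries and 1522, 1509 and 1491 CPM in the Cb-T libraries. All Cb-T libraries lay above all Cb-N libraries, and the log2 fold change was 0.38 (SE 0.022, FDR 1.2e-18), or 1.30-fold. *Slc1a3* measured 1711, 1687 and 1708 CPM in the Cb controls and 1587, 1594 and 1595 CPM in the mutants. Again the groups did not overlap, but here the mutants were lower, and *Slc1a3* fell by 0.083 on the log2 scale (SE 0.020, FDR 0.00044). Without scaling factors, on library sizes only, this change was -0.040 with an FDR of 0.086. *Glul* measured 784, 776 and 795 CPM in control Cb and 1037, 1005 and 1018 CPM in mutant Cb, a rise of 0.39 on the log2 scale (SE 0.021, FDR 1.3e-19) with no overlap.

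In F/M the changes of *Slc1a2* and *Glul* were smaller, and *Slc1a3* moved in the other direction. *Slc1a2* measured 3419, 3573 and 3223 CPM in F/M-N and 3456, 3815 and 3453 CPM in F/M-T. The 2 groups overlapped, the log2 fold change was 0.10 (SE 0.034) and the FDR of 0.035 was lost when either of 2 libraries was left out. The change was 0.058 (FDR 0.193) without F/M-T replicate 2 and 0.066 (FDR 0.111) without F/M-N replicate 3. DESeq2 in place of edgeR gave an FDR of 0.105 for it, and the fit of all 12 libraries 0.116. *Slc1a3* measured 636, 626 and 624 CPM in F/M-N and 667, 687 and 662 CPM in F/M-T, a rise of 0.13 (SE 0.025, FDR 0.0010) without overlap. *Glul* rose by 0.086 (SE 0.023, FDR 0.011), from 1231, 1216 and 1235 CPM in F/M-N to 1280.2, 1274 and 1267 CPM in F/M-T, and the fit of all 12 libraries gave 0.053 (FDR 0.060).

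The area set which glutamate transporter had the higher level. Per kilobase of exon, which allows levels of different genes to be compared, *Slc1a2* stood at a ratio to *Slc1a3* of 3.36 to 3.71 in the F/M-N libraries and of 0.426 to 0.463 in the Cb-N libraries. In Cb-T the ratio was 0.608 to 0.623, above every Cb-N library and far below every F/M library, and in F/M-T it was 3.37 to 3.61, within the range of F/M-N. *Slc1a2* lies on mouse chromosome 2 (GRCm38, chr2:102658659-102790784, plus strand) and *Slc1a3* on chromosome 15 (chr15:8634124-8710764, minus strand). *Glul* lies on chromosome 1 (chr1:153899944-153909723, plus strand). Of the 50-base words in the transcripts of *Glul*, 11.9% also occur in transcripts of other genes, mostly (9.46%) in its pseudogene *Glns-ps1*. That pseudogene had 3 to 16 counts in a library against at least 16926 for *Glul*. How reads with several alignments were counted is not known, so these counts do not measure the shared part.

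**Figure D2:**
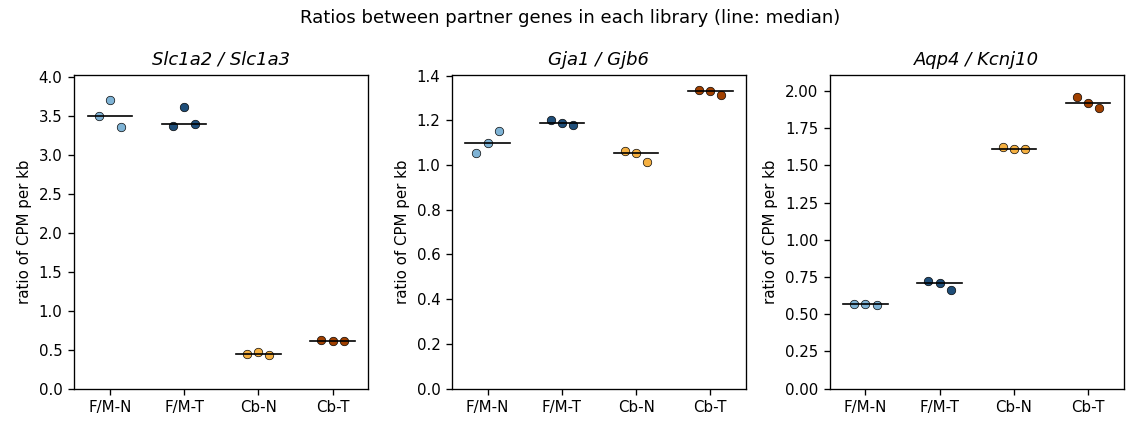
Ratio of CPM per kilobase of exon between partner genes in each library of the 4 groups, with a line at the median of 3 libraries and axes that start at 0. The *Slc1a2* to *Slc1a3* ratio has medians of 3.49 in F/M-N, 3.39 in F/M-T, 0.449 in Cb-N and 0.615 in Cb-T, and both other ratios are higher in T than in N in every library of both areas.

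The 250 bases before the start site of both transporter genes are shown because these genes differ in direction between the control areas and in mutant Cb. Sequences are from RefSeq on GRCm38.p6, 5′ to 3′ on the strand of the gene, and 8 of the 9 genes had an entry (9 start sites, since *Aldh1a1* has 2). Capitals mark matches, on either strand and allowed to overlap, to 6 short motifs that were searched: the CAAT box CCAAT, the GC box GGGCGG, the STAT motif TTCNNNGAA, the NFI motif TTGGCA, the SOX motif ACAATGG and the NF-kB motif. The RefSeq start of *Slc1a2* lies inside the gene as GENCODE draws it.
*Slc1a2* promoter (chr2:102706188-102706437, plus strand): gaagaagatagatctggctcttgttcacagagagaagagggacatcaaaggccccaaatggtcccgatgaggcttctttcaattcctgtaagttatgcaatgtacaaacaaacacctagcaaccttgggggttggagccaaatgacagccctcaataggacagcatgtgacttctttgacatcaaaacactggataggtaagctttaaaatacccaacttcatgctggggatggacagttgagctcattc
*Slc1a3* promoter (chr15:8710808-8711057, minus strand): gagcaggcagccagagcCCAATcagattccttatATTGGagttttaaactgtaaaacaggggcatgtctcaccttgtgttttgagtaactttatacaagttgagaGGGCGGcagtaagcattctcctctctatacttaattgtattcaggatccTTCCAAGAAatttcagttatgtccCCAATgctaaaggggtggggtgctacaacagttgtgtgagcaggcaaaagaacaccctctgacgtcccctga
The *Slc1a2* window held none of the 6 motifs. The *Slc1a3* window held 3 CAAT boxes, 1 GC box and 1 STAT match, at 96 to 88 bases before the start site. Of all 32851 promoter windows of this length, 33.85% held a CAAT box, 32.74% a GC box, 7.02% a STAT match, 12.28% an NFI match, 3.02% a SOX match and 0.3562% an NF-kB match. Among the 9 windows of the list, 5 held a CAAT box, 4 a GC box, 1 a STAT match (*Slc1a3*), 1 an NFI match (*Aldh1a1*) and none a SOX or NF-kB match. These letters describe the windows and do not show that a factor binds there.

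*Aqp4* codes for aquaporin-4, the water channel of the endfeet, and *Kcnj10* for the inward rectifier potassium channel Kir4.1, which sits in the same membranes. *Aqp4* had the largest change of the list in both areas. It measured 528, 535 and 525 CPM in control Cb and 924, 907 and 893 CPM in mutant Cb, a 1.73-fold difference (log2 0.79, SE 0.022, FDR 2.9e-30). In F/M it measured 182, 185 and 178 CPM in N and 251, 261 and 239 CPM in T, a 1.41-fold difference (log2 0.49, SE 0.033, FDR 1.2e-09). No library of a mutant group overlapped its controls. *Kcnj10* measured 282, 288 and 283 CPM in control Cb and 409, 409.7 and 410.2 CPM in mutant Cb, and its change of 0.54 (SE 0.024, FDR 4.6e-23) lay just under the DEG limit of 0.585. In F/M it rose by 0.19 (SE 0.029, FDR 9.7e-05), from 279, 282 and 275 CPM to 299.7, 319 and 313 CPM. The ratio of *Aqp4* to *Kcnj10* per kilobase was 0.562 to 0.570 in control F/M and 0.661 to 0.725 in mutant F/M. In Cb it was 1.61 to 1.62 in controls and 1.89 to 1.96 in mutants, so the ratio was higher in the mutants of both areas with no overlap.

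Gap junctions of astrocytes are built mainly from the connexins Cx43 (*Gja1*) and Cx30 (*Gjb6*). *Gja1* measured 289, 289 and 287 CPM in control Cb and 415, 406 and 407 CPM in mutant Cb, a rise of 0.52 (SE 0.024, FDR 2.6e-22) with no overlap. In F/M it rose by 0.19 (SE 0.029, FDR 0.00012), from 263, 257 and 268 CPM to 296, 292 and 288 CPM, also without overlap. *Gjb6*, the gene with the fewest counts of the list, measured 71.0, 71.5 and 73.6 CPM in control Cb and 81.0, 79.4 and 80.8 CPM in mutant Cb, a rise of 0.17 (SE 0.035, FDR 5.8e-05). In F/M, *Gjb6* measured 64.9, 61.0 and 60.6 CPM in N and 64.4, 64.1 and 63.5 CPM in T. These groups overlapped, and the log2 fold change of 0.075 (SE 0.040, FDR 0.21; 0.042 in the fit of all 12 libraries) did not pass the test, which does not show that the level was equal. The ratio of *Gja1* to *Gjb6* per kilobase ranged from 1.02 to 1.06 in control Cb and from 1.31 to 1.33 in mutant Cb, and in F/M it ranged from 1.05 to 1.15 in controls and from 1.18 to 1.20 in mutants.

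The promoters of *Gja1* and *Kcnj10* are shown because these genes changed by about the same amount in each area, with the capitals as above.
*Gja1* promoter (chr10:56377050-56377299, plus strand): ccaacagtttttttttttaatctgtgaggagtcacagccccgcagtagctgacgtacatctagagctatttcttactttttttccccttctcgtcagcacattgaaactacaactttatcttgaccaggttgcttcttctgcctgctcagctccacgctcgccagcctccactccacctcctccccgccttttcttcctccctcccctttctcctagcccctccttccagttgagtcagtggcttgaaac
*Kcnj10* promoter (chr1:172340960-172341209, plus strand): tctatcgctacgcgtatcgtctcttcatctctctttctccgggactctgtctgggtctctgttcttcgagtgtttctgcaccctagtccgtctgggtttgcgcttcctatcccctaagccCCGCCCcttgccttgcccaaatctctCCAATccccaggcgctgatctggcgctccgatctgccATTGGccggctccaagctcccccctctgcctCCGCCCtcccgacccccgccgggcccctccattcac
The *Gja1* window held none of the 6 motifs, and the *Kcnj10* window held 2 CAAT boxes and 2 GC boxes. *Gja1* lies at chr10:56377330-56402513 (GRCm38, plus strand), *Kcnj10* at chr1:172341210-172374085 (plus strand) and *Gjb6* at chr14:57123303-57133611 (minus strand).

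The 2 aldehyde dehydrogenase genes of the list act in different pathways: *Aldh1l1* codes for the cytosolic 10-formyltetrahydrofolate dehydrogenase of folate metabolism, and *Aldh1a1* for a retinaldehyde dehydrogenase that makes retinoic acid. *Aldh1a1* measured 196, 203 and 207 CPM in control Cb and 306, 316 and 316 CPM in mutant Cb, a 1.56-fold difference (log2 0.65, SE 0.026, FDR 3.4e-24). In F/M it measured 66.9, 61.4 and 59.8 CPM in N and 84.5, 80.1 and 79.5 CPM in T, a 1.33-fold difference (log2 0.41, SE 0.044, FDR 1.3e-06). Both comparisons were without overlap. *Aldh1l1* measured 74.3, 74.0 and 71.9 CPM in control Cb and 85.8, 88.9 and 89.8 CPM in mutant Cb, a rise of 0.28 (SE 0.035, FDR 5.5e-09). In F/M its libraries overlapped, with 70.4, 63.5 and 65.7 CPM in N and 73.7, 69.7 and 77.0 CPM in T, and the log2 fold change was 0.18 (SE 0.046, FDR 0.011). *Aldh1a1* lies at chr19:20492715-20643465 and *Aldh1l1* at chr6:90486427-90600203, both on the plus strand of GRCm38. *Aldh1a1* shared 3.06% of its 50-base words with its paralog *Aldh1a7*, which had 1 to 23 counts in a library. An antisense gene, *Gm15756*, covers 11.05% of the exons of *Aldh1l1* and had 0 to 2 counts. The counting rules for such reads are not known, so these counts do not measure the shared parts either.

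**Figure D3:**
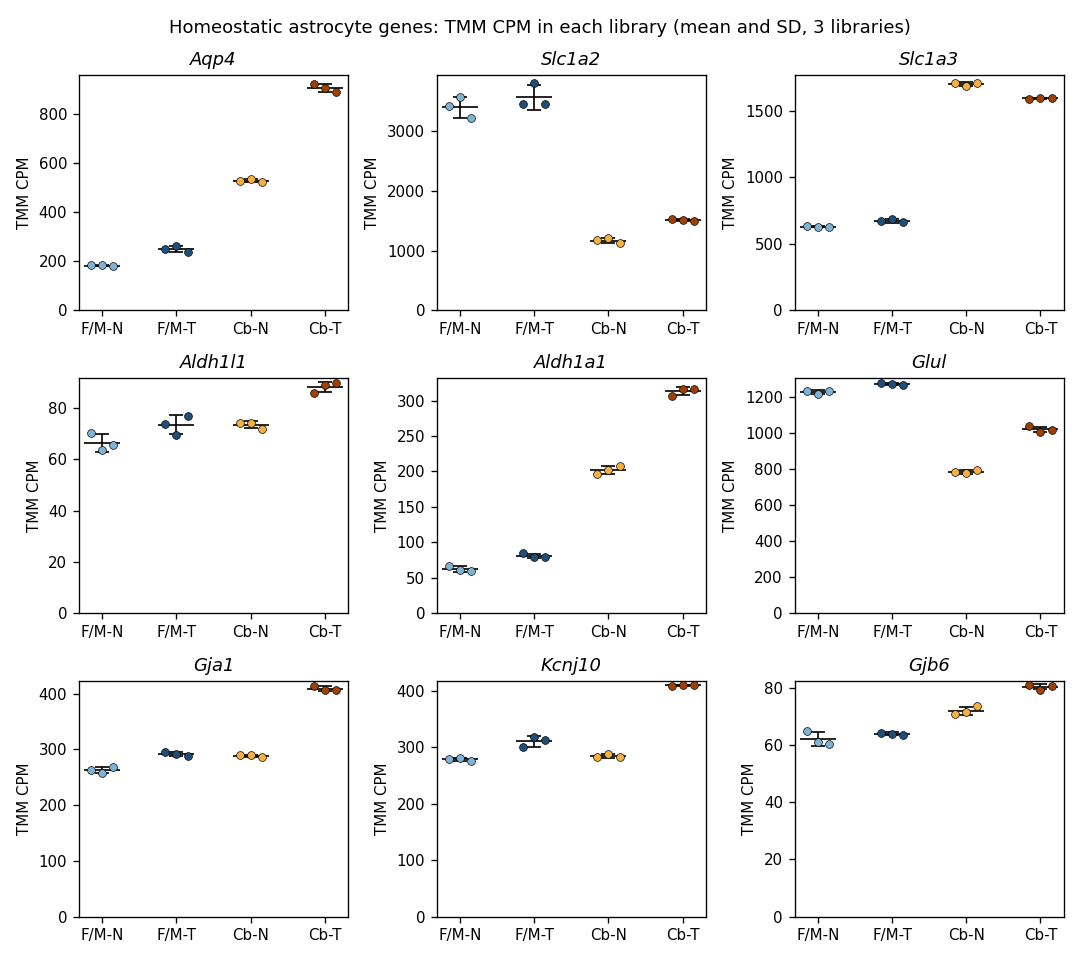
TMM-normalized CPM of each gene in each of the 12 libraries, with the mean and SD of 3 libraries in each group, on linear axes that start at 0. Mutant and control points separate for every gene in Cb, where *Slc1a3* is the one lower in T, whereas *Slc1a2*, *Aldh1l1* and *Gjb6* overlap in F/M.

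Counted by libraries, 8 genes of the list were higher and 1 was lower in Cb-T without overlap, where 27.7% and 29.4% of all genes tested were. In F/M, 6 of 9 were higher without overlap against 13.3% of all genes, and none was lower against 23.6%, on the common CPM scale. The spread between replicates was small throughout, and the highest coefficient of variation of a gene within a group was 5.96% (*Aldh1a1* in F/M-N).

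Whether the change differed between the areas was tested as the interaction of area and genotype over all 12 libraries. In Cb the log2 fold change exceeded that of F/M for 6 genes, for *Slc1a3* it was below it, and *Aldh1l1* and *Gjb6* did not pass, while 17.4% of the 17482 genes tested were higher and 10.1% lower (27.5% in all). The difference was 0.37 for *Kcnj10* (FDR 4.5e-09), 0.35 for *Gja1* (FDR 7.0e-09), 0.32 for *Glul* (FDR 7.8e-10), 0.32 for *Aqp4* (FDR 2.5e-07), 0.30 for *Slc1a2* (FDR 1.1e-05) and 0.26 for *Aldh1a1* (FDR 0.00035). *Slc1a3* had a difference of -0.19 (FDR 1.1e-05), as it fell in Cb and rose in F/M. *Aldh1l1* and *Gjb6* both had a difference of 0.12 (FDR 0.14 and 0.10), and they passed under 4 and 5 of 18 alternative settings. For *Aldh1l1* it was 0.056 without Cb-T replicate 3 (FDR 0.60) and 0.081 without F/M-N replicate 1 (FDR 0.39). For *Gjb6* it was 0.061 without Cb-T replicate 1 and 0.062 without Cb-T replicate 3 (FDR 0.49 in both). Leaving out Cb-T replicate 1 or 3 also shifted the differences of all genes, by a median of -0.051 and -0.050, so most of the drop of *Aldh1l1* without Cb-T replicate 3 and nearly all of that of *Gjb6* was common to all genes. No gene of the list differed by 1.5-fold or more between the areas, which 6.41% of all genes did upward and 1.20% downward.

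The control areas differed as well, by at least 1.5-fold for 5 of the genes. In Cb-N against F/M-N, 6 genes were higher, 2 were lower and *Kcnj10* did not pass, and 40.3% and 40.1% of the 16725 genes tested were higher and lower (80.5% in all). Without overlap of libraries 7 genes of the list were higher and 2 lower in Cb-N, against 39.5% and 38.8% of all genes. The 5 DEG were *Aldh1a1* (3.21-fold, log2 1.68, SE 0.040, FDR 3.2e-19), *Aqp4* (2.90-fold, log2 1.54, SE 0.027, FDR 2.9e-21) and *Slc1a3* (2.70-fold, log2 1.43, SE 0.023, FDR 6.0e-22), which were higher in Cb, and *Slc1a2* (0.342-fold, log2 -1.55, SE 0.032, FDR 4.0e-20) and *Glul* (0.638-fold, log2 -0.65, SE 0.023, FDR 4.9e-16), which were lower. The background was 19.2% of genes DEG upward and 22.8% downward. *Gjb6* (0.21), *Aldh1l1* (0.14) and *Gja1* (0.13) were slightly higher in Cb, and *Kcnj10* differed by 0.026 (SE 0.027, FDR 0.39), with values from 0.014 without F/M-N replicate 3 and 0.016 without Cb-N replicate 2 to 0.089 on library sizes only (FDR 0.0051). In Cb-T the levels of *Slc1a2*, *Glul* and *Slc1a3* moved towards those of F/M-N and the other 6 moved away from them, and no Cb-T library of these 3 genes reached the range of F/M-N. The Cb-N libraries enter both of these comparisons.

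The order of the levels per kilobase followed the area. In F/M-N it was *Glul* (369 CPM per kilobase), *Slc1a2* (259), *Slc1a3* (73.7), *Kcnj10* (51.5), *Aqp4* (29.2), *Gja1* (25.6), *Gjb6* (23.2), *Aldh1l1* (14.7) and *Aldh1a1* (12.7), with no overlap between neighbours. In Cb-N it was *Glul* (236), *Slc1a3* (199), *Slc1a2* (89.0), *Aqp4* (84.9), *Kcnj10* (52.6), *Aldh1a1* (40.9), *Gja1* (28.1), *Gjb6* (26.9) and *Aldh1l1* (16.3), where the libraries of *Slc1a2* and *Aqp4* overlapped. In Cb-T, *Aqp4* (146) stood above *Slc1a2* (115) without overlap, and the rest kept the order of Cb-N. In F/M-T the order was that of F/M-N, except that *Aldh1a1* (16.5) and *Aldh1l1* (16.3) overlapped. These orders rest on the annotated exon lengths, and in CPM without that division *Gja1* (263) stood above *Aqp4* (182) in F/M-N. The plot of levels per kilobase shows the orders.

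**Figure D4:**
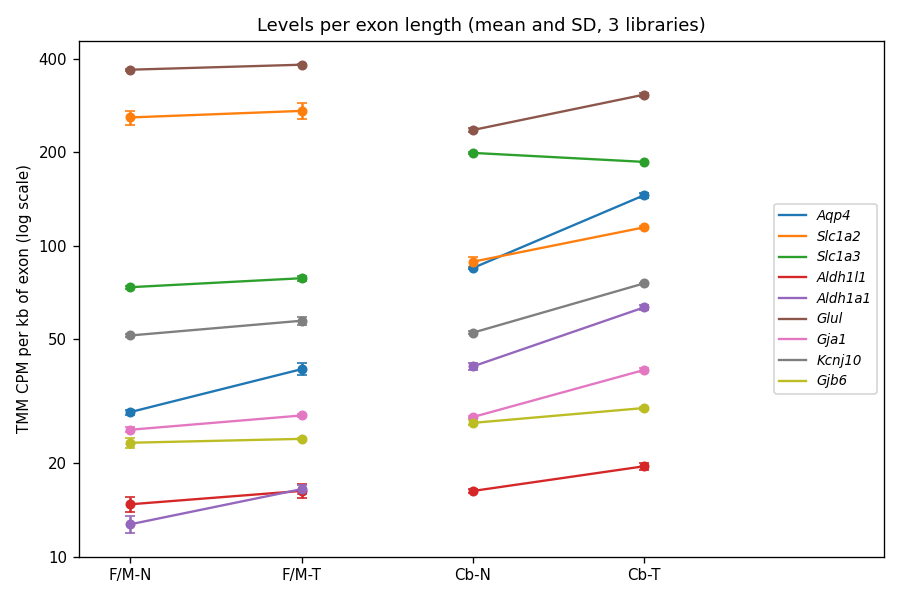
Mean TMM-normalized CPM per kilobase of exon of each gene, with the SD of 3 libraries, in the 4 groups on a log axis. Lines join N and T of the same area. *Aqp4* passes *Slc1a2* between Cb-N (84.9 and 89.0) and Cb-T (146 and 115), and *Glul* is the highest in every group.

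Other genes of the same functions were read from lists that were written with earlier results of these data known, and their counts stand against 29.8% of all genes higher and 27.9% lower in Cb, and 12.8% higher and 14.4% lower in F/M. Of 12 partners in the cycle of glutamate and glutamine, 7 rose and 4 fell in Cb (median log2 fold change 0.16), and 1 rose and 2 fell in F/M (median -0.053). The only DEG among them was *Slc17a6*, the vesicular glutamate transporter VGLUT2 of neurons, which rose by 2.28 in Cb (SE 0.044, FDR 2.3e-36) and was lower in Cb-N than in F/M-N (log2 -2.59). *Slc38a3*, a glutamine transporter of astrocytes, rose by 0.50 in Cb. Of 8 genes of the complex that anchors aquaporin-4, 4 rose and 2 fell in Cb and 1 rose and 1 fell in F/M. *Sntb1*, a syntrophin, was a DEG in Cb (log2 0.72, SE 0.18, FDR 0.0010), and *Mlc1* rose in both areas (0.41 and 0.29). The 2 that fell in Cb were *Dtna* (-0.12) and the dystrophin gene *Dmd* (-0.10). Of 11 partners in coupling and in potassium or sodium handling, 7 rose and 2 fell in Cb and 4 rose and 1 fell in F/M, and none was a DEG. Of 12 aldehyde dehydrogenase and folate partners, 3 rose and 1 fell among the 10 tested in Cb, and 2 rose and none fell in F/M, where *Aldh1l2*, the mitochondrial counterpart of *Aldh1l1*, was a DEG (0.59, SE 0.11, FDR 0.00069). In Cb, *Aldh1l2* was the 1 gene of this list that fell (-0.17, FDR 0.021), and its changes differed between the areas (interaction -0.74, FDR 8.4e-05).

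Among 16 other astrocyte genes, 15 rose and none fell in Cb (median log2 fold change 0.25), and 12 rose and 1 fell in F/M (median 0.19). The exceptions were *Dio2*, which did not pass in Cb (0.0083) and fell by 0.099 in F/M, and *Fgfr3*, *Slc6a11* and *Cldn10*, which did not pass in F/M. The DEG of this list in Cb were *Slc6a11*, the GABA transporter GAT-3 (1.49, SE 0.033, FDR 3.0e-34), *Clu* (0.73, SE 0.022, FDR 8.3e-29) and *Slc39a12* (0.72, SE 0.036, FDR 9.9e-21), and F/M had none. In Cb-N against F/M-N, *Slc6a11* (-2.37) and *Clu* (-0.65) were lower and *Slc39a12* (0.084) was slightly higher. The part of the tissue taken in these Cb changes was not tested. All 12 reactive astrocyte genes rose in Cb (median 1.85, 10 DEG), and 8 of 11 tested rose in F/M (median 0.68, 6 DEG). *Gfap*, the intermediate filament gene of reactive astrocytes, measured 155, 152 and 152 CPM in control Cb, 1142, 1145 and 1137 CPM in mutant Cb, 183, 183 and 188 CPM in control F/M and 614, 603 and 621 CPM in mutant F/M. Its log2 fold change was 2.91 in Cb and 1.76 in F/M, against at most 0.79 and 0.49 for any of the 9 homeostatic genes in the same libraries. The other reactive genes with the largest rises were *Serpina3n* (4.33), *Timp1* (3.25) and *C4b* (3.11) in Cb, and *Timp1* (1.72) and *C4b* (1.65) in F/M. Of 6 Bergmann glia genes, all higher in Cb-N than in F/M-N, 2 rose and 3 fell in Cb (median -0.027). Their summed level was 2187 to 2204 CPM in control Cb and 2016 to 2056 CPM in mutant Cb. This sum is carried mainly by *Gria1*, *Gria4* and *Sept4* (means of 692, 682 and 501 CPM in Cb-N). *Gdf10* (-0.37), *Gria4* (-0.22) and *Gria1* (-0.059) fell, *Fabp7* (0.53) and *Hopx* (0.075) rose, and *Sept4* did not pass. In F/M none of the 6 passed the test.

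**Figure D5:**
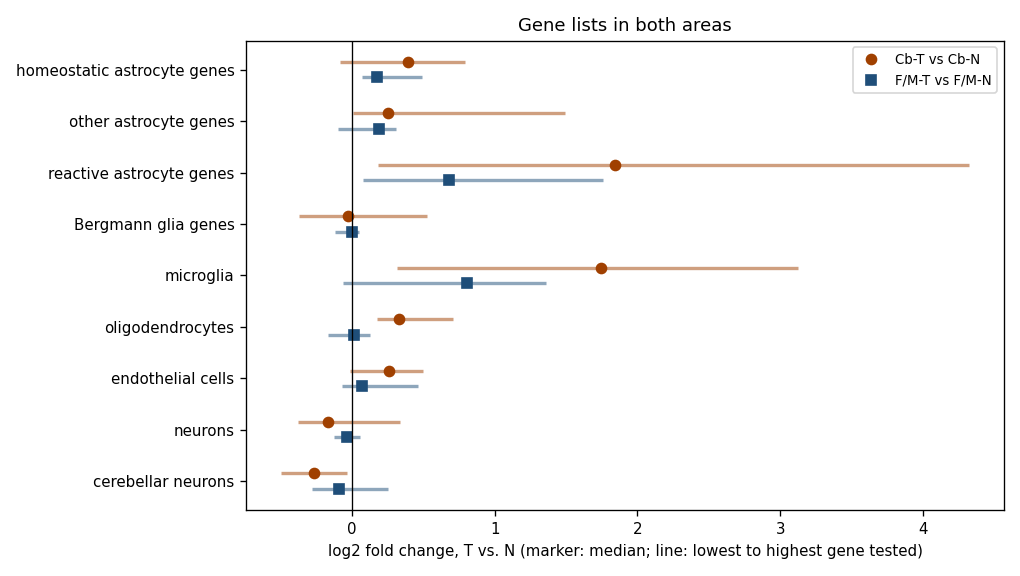
Median log2 fold change (marker) and the lowest and highest gene tested (line) of each gene list for T against N in Cb (circles) and F/M (squares). The homeostatic astrocyte genes have medians of 0.39 and 0.18, the other astrocyte genes 0.25 and 0.19, the reactive astrocyte genes 1.85 and 0.68 and the microglia genes 1.75 and 0.81.

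Markers of other cell types and of other brain areas moved with genotype as well. In Cb, all 10 microglia genes rose (summed level 148 to 158 CPM in controls and 499.6 to 514 in mutants), all 8 oligodendrocyte genes rose (4620.1 to 4729 against 6063 to 6119 CPM, with *Opalin*, at 0.71, the 1 DEG), and 7 of 8 cerebellar neuron genes fell (5997 to 6119 against 4938 to 4978 CPM). The cerebellar neuron genes summed to 281 to 298 CPM in control F/M, as the labels of the areas have it. All 11 tested of 14 genes of the hindbrain outside the cerebellum rose, with a summed level of 0.464 to 0.688 CPM in Cb-N and 14.4 to 15.6 CPM in every Cb-T library, and 6 of the 14 (*Hoxb5*, *Hoxb6*, *Hoxc4*, *Hoxc5*, *Hoxd3* and *Hoxd4*) were at 0 in all Cb-N libraries. Since every Cb-T library carried these transcripts, genotype and the tissue taken cannot be told apart for the Cb changes of the 9 genes. Of 6 endothelial genes, 4 rose in Cb and 1 rose in F/M, with none lower in either area. Of 6 general neuron genes, 2 rose and 4 fell in Cb, and 3 fell in F/M.

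In F/M, all 5 olfactory bulb genes fell, with a summed level of 38.2 to 39.3 CPM in controls and 14.0 to 15.3 CPM in mutants, so that the tissue taken and genotype cannot be told apart there either. Choroid plexus genes had summed levels of 599 to 639 CPM in control F/M and 821 to 869 CPM in mutant F/M, with 1 of 6 higher by the test, and of 2231 to 2373 CPM in control Cb and 2128 to 2260.4 CPM in mutant Cb, with 1 higher and 2 lower. Dopamine neuron genes had summed levels of 56.9 to 59.0 CPM in control F/M and 62.4 to 68.5 CPM in mutant F/M. Of 5 tested there, 2 rose and none fell, and *Th*, *Slc6a3* and *En1* did not pass. In Cb the sums were 20.8 to 23.5 CPM in controls and 34.5 to 38.2 CPM in mutants. Of 4 tested in Cb, 3 rose and *En1* fell (-0.32), and *Slc6a3* and *Pitx3* were not tested. *Slc18a2* had the largest rise of this list in both areas (3.70 in Cb and 0.53 in F/M). Of the oligodendrocyte genes, 1 rose and 1 fell in F/M, and 8 of 10 microglia genes rose. The part of these lists in the changes of the 9 genes was not tested.

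For each gene of the list, the genes with the most similar log2 CPM across the 12 libraries were taken from 17473 genes. *Sparc* and *Sfxn5* were the closest to both *Aqp4* (Pearson r 0.998 and 0.996) and *Aldh1a1* (0.998 and 0.996). *C3* was among the closest to *Gja1* (0.990), and *Kcnj10* was closest to *Sparcl1* (0.988) and *C3* (0.985). The closest to *Slc1a2* were *D130043K22Rik* and *Rnf157* (both 0.998), to *Slc1a3* *Stat2* (1.000) and *1190002N15Rik* (0.999), and to *Glul* *Kcnj2* (0.998) and *Cxcl14* (0.997). *Aldh1l1* (*Stxbp3* 0.967 and *Pgghg* 0.965) and *Gjb6* (*Irx2* and *Dazap2*, both 0.988) completed the list. Within it, *Aqp4* and *Aldh1a1* had an r of 0.995, *Gja1* and *Kcnj10* of 0.972, and *Slc1a2* and *Slc1a3* of -0.984. These values describe 12 libraries that fall into 4 groups, and they share area, genotype and scaling.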

How the data were processed

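Total RNA of Cb and F/M was made into stranded poly(A) libraries, which were sequenced as single-end reads of 50 nucleotides. The authors aligned the reads to GRCm38/mm10 with STAR (2.5.1b in the submitters' processing notes) and counted them per gene with featureCounts of Rsubread (1.26.1), and the deposited values are raw counts, 1 table for each library. The annotation release, the strand setting of the counting and the handling of reads with several alignments are not given in the sources used here. Libraries were assigned to groups by their titles. They are separate samples, but the labels do not tie each to an animal, so p-values measure the spread between these samples.

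Counts were analysed in R 4.3.3 with edgeR 4.0.16 (filterByExpr at its minimum count, 10, and minimum total, 15, then TMM, glmQLFit and glmQLFTest, Benjamini-Hochberg adjustment over all genes tested), on the 6 libraries of a comparison or, for the interaction, on all 12. SE was the log2 fold change divided by the square root of F. Replicates of a group differed by more than sampling noise (chi-square per degree of freedom 1.27 to 3.37 for the 12 pairs of libraries). Exon lengths (the union of all annotated exons of a gene) and gene positions are from GENCODE vM21. Alternatives were DESeq2 1.42.0, other scalings, no filter, no fold-change limit, a replicate block, a fit of all libraries and leaving out each library.

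The 9 genes and all other lists were chosen with earlier results of these data known. Genes outside the list were named only where they were DEG (at most the 3 with the largest changes per direction, list and comparison; DEG of the microglia and brain-area lists and of the control areas are given as counts or summed levels), exceptions of a list or among the 2 most like a member by Pearson r of log2 CPM with a prior count of 2. *Tpp1*, *Gfap* and the genes that share sequence or exons with a member were named in addition. *Slc38a3*, *Mlc1*, *Dmd*, *Dtna*, the *Hox* genes, the Bergmann glia genes and the dopamine neuron genes were named after their values were seen. A few results are not reported here. Protein sequences were not used here.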

Additional observations from a re-analysis of the deposited data

Results flagged for a closer look

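For 7 of the 9 genes the change with genotype differed between the areas by the interaction test of edgeR, which 27.5% of the 17482 genes tested passed (17.4% higher and 10.1% lower in Cb). The log2 fold change in Cb minus that in F/M was 0.37 for *Kcnj10*, 0.35 for *Gja1*, 0.32 for *Glul*, 0.32 for *Aqp4*, 0.30 for *Slc1a2*, 0.26 for *Aldh1a1* and -0.19 for *Slc1a3*. *Slc1a3* was the one gene whose direction differed, with all Cb-T libraries below all Cb-N libraries and all F/M-T libraries above all F/M-N libraries. The part of the tissue taken in these differences was not tested.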

How the results depend on the processing

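The number of DEG among the 9 genes (2 in Cb, 0 in F/M, 5 between the control areas and 0 in the interaction) was the same with DESeq2, RLE or upper-quartile factors, library sizes only, no filter on low counts and a fit of all 12 libraries, and with any 1 library left out (2 to 2, 0 to 0, 5 to 5 and 0 to 0). With no fold-change limit it was 9, 8, 8 and 7. The deviations of same-numbered libraries had correlations from -0.016 to 0.062, which leaves the pairing of mice unknown, and the replicate block gave 2, 0, 5 and 0 DEG. No gene changed direction. Of the fold changes of single genes under all alternatives, 117 of 117 in Cb kept their side of the FDR limit. In F/M, 113 did and 4 did not, all for *Slc1a2* as given above. Between the control areas 116 did, and *Kcnj10* passed on library sizes only (0.089, FDR 0.0051). In the interaction 153 did, and 9 values of *Aldh1l1* and *Gjb6* passed, with FDR of 0.080 and 0.097 under the replicate block. Scaling moved the median of all genes by at most 0.063. For *Gjb6* in F/M, the change (0.075) was not separated from its own error (SE 0.040).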
